A study of Mus musculus with 6 samples.

Results

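Platelet barcodes were examined in droplet-based single-cell RNA-seq libraries of the aged mouse lung. A barcode was taken as a platelet or megakaryocyte when it held at least 5 UMIs (unique molecular identifiers, 1 per captured RNA molecule) of Ppbp, at least 5 of Pf4 and at least 1 of Itga2b, and no UMI of the macrophage gene C1qa, the endothelial gene Cdh5, the B cell gene Cd79a or the T cell gene Cd3e. The search covered 91156 barcodes that had 300 genes and 500 UMIs or more and a mitochondrial share of up to 15%, and 259 of them (0.284%) met these thresholds. These UMI counts chose the barcodes, so the levels of the 7 genes are given as a description.

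The 6 libraries came from lungs of male C57BL/6 mice aged 21 months, 1 mouse per library. The 3 mice labelled p16-DTR had the genotype p16-CreERT2/R26-LSL-DTR, in which a tamoxifen-inducible Cre expressed from the p16 gene can switch on a diphtheria toxin receptor at the R26 locus, and the 3 control mice had p16-CreERT2 alone. Every mouse was given tamoxifen over 5 days. After a gap of 2 weeks came diphtheria toxin over 5 days and then 2 weeks of rest, so both groups share the Cre allele and both agents. Lungs were digested with liberase. The red cells were lysed, and 20000 sorted CD45- cells and 9000 CD45+ cells of each lung were combined for 1 library; the matrices do not record which gate a barcode came from.

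Platelets are cell fragments without a nucleus that megakaryocytes release into blood. They carry a stock of RNA from the megakaryocyte, adhere to exposed collagen and von Willebrand factor through glycoprotein receptors, and secrete chemokines and clotting factors from granules once activated. Megakaryocytes also reside in the lung, where they shed platelets into the pulmonary circulation.

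The promoters of the 3 genes that chose the barcodes, and of 2 subunits of the von Willebrand factor receptor that the thresholds did not use, are shown because their transcripts stood far above those of other cells in every library below. Ppbp and Pf4, which encode the platelet chemokines pro-platelet basic protein and platelet factor 4, lie beside each other on the plus strand of chromosome 5 (GRCm38, Ppbp from 90768518 to 90770063 and Pf4 from 90772435 to 90773383). Itga2b, the alpha chain of the fibrinogen receptor, lies on the minus strand of chromosome 11 from 102453297 to 102470122 in GENCODE M21. Each sequence is the 250 bases before the RefSeq transcription start (GRCm38.p6), read 5′ to 3′ on the gene's strand (Ppbp chr5:90768268-90768517, Pf4 chr5:90772185-90772434 and Gp9 chr6:87777820-87778069 on the plus strand, Itga2b chr11:102469884-102470133 and Gp5 chr16:30310782-30311031 on the minus strand), and capitals mark matches on either strand to the GATA motif (spelled AGATAA, the variant TGATAA, the variant AGATAG or the variant TGATAG), the ETS motif (spelled AGGAAG or, as a variant, CGGAAG) or the NF-E2 motif (spelled TGAGTCA). No matches overlapped.
Ppbp: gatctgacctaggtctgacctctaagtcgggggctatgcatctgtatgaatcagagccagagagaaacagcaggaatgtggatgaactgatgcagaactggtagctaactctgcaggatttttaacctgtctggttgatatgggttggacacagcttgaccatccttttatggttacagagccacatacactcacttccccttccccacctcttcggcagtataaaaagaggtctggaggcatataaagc
Pf4: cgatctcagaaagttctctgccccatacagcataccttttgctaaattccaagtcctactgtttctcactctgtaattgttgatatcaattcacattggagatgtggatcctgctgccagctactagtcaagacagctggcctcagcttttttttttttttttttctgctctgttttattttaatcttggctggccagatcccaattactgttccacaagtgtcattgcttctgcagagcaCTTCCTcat
Itga2b: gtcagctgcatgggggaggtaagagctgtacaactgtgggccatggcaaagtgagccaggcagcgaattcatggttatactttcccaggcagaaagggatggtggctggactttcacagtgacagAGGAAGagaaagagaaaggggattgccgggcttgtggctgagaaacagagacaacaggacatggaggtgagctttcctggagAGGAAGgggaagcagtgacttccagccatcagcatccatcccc
Gp9: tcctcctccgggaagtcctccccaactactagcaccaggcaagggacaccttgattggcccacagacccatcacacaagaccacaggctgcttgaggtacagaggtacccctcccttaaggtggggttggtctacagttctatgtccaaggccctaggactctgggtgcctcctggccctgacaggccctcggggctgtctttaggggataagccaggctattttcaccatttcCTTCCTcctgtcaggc
Gp5: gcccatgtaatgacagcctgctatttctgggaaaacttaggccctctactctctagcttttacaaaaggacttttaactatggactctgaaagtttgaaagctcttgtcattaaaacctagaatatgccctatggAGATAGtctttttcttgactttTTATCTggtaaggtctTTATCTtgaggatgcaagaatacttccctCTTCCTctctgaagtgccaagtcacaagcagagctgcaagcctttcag
The RefSeq start of Itga2b, at 102469883, lies inside the GENCODE gene, so 239 of the 250 bases of its window overlap that gene. Itga2b held 2 ETS matches, which begin 125 and 43 bases before the RefSeq start, Pf4 and Gp9 held 1 each, and Gp5 held 3 GATA matches and 1 ETS match. The Ppbp window held none of these letters. Over all 32851 RefSeq windows of the same length, a GATA match was present in 26.5%, an ETS match in 39.2% and an NF-E2 match in 4.46%. Of the 25 transcripts described below as highest among those raised in platelet barcodes, 21 genes had 32 windows in this table, of which 6 held a GATA match, 11 an ETS match and 4 an NF-E2 match. A match is a description of the letters and not a binding site.

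The platelet barcodes were spread unevenly over the mice. The p16-DTR libraries held 25, 15 and 26 of them, and the control libraries 17, 11 and 165. Control replicate 3 therefore held 63.7% of all platelet barcodes, and 94 lay outside it. As a share of retained barcodes, the p16-DTR libraries stood at 0.169%, 0.0995% and 0.169%, and the control libraries at 0.101%, 0.0845% and 1.03%. The 95% Wilson interval of control replicate 3 ran from 0.883% to 1.20%, above those of the other 5 libraries, the highest of which reached 0.250%. These intervals cover counting error only.

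The mean share was 0.146% ± 0.0403 in p16-DTR and 0.404% ± 0.540 in control libraries (SD, n = 3 each). The difference, p16-DTR minus control, was -0.258 percentage points, with p = 0.9 in an exact two-sided permutation test whose smallest possible p is 0.1. Without control replicate 3 the sign turned, to 0.0535 percentage points higher in p16-DTR (exact p = 0.3). The share of platelets thus did not differ between the groups beyond the spread between mice, and 1 control library set the sign of the difference. No barcode sequence was that of a platelet barcode in more than 1 library. Pairs of libraries shared 55 to 90 of their retained barcode sequences, 0.378% to 0.586% of the smaller library.

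**Figure D1:**
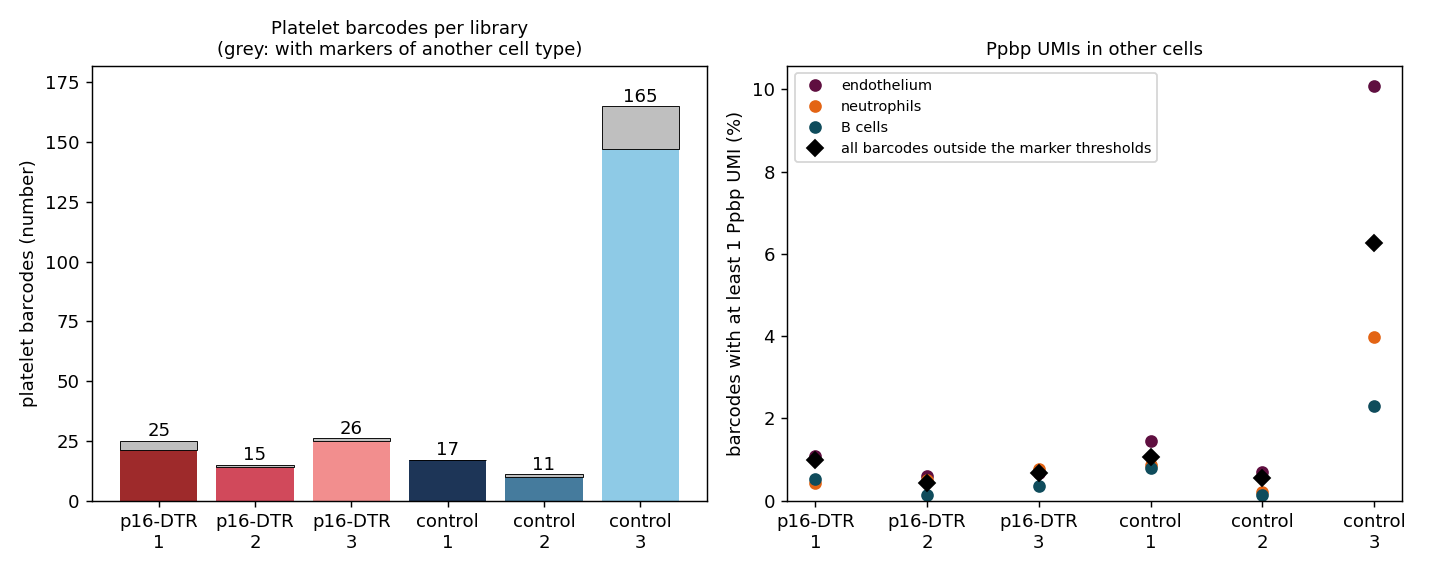
The left panel plots the number of platelet barcodes in each of the 6 libraries as bars, with the barcodes that also held markers of another cell type, as defined below, in grey. Control replicate 3 holds 165 of 259. The right panel plots the percentage of barcodes with at least 1 Ppbp UMI in endothelium, neutrophils, B cells and all barcodes that did not meet the Ppbp, Pf4 and Itga2b thresholds, and the points of control replicate 3 lie highest.

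Control replicate 3 also carried more platelet RNA in cells of other types. Among barcodes that did not meet the 3 marker thresholds, 0.985%, 0.419% and 0.672% held a Ppbp UMI in p16-DTR libraries, 1.05% and 0.554% in control replicates 1 and 2, and 6.26% in control replicate 3. In endothelial barcodes (at least 3 Cdh5 and 1 Pecam1 UMI, median 16416 UMIs in control replicate 3) the share was 10.1% there against 0.610% to 1.45% elsewhere. In B cells it was 2.29% against 0.136% to 0.795%, and in neutrophils 3.97% against 0.217% to 0.872%. The shares differed between cell types within that library at like depths of endothelium and B cells (median 14369 UMIs). Whether Ppbp in these cells came from free RNA, fragments or attached platelets was not tested.

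The exclusion of other lineages removed many barcodes with platelet RNA. Of 431 barcodes that met the Ppbp, Pf4 and Itga2b thresholds, 172 held a UMI of an excluded gene, 162 of them of Cdh5, 24 of Cd79a, 2 of Cd3e and 1 of C1qa. Control replicate 3 held 122 of these 172. Their median UMI total per library was 10042 to 33880 (17103 to 18511 in the remaining barcodes), and their median Malat1 share was 0.605% to 1.24%. At the edge of the thresholds, 35 barcodes had exactly 1 Itga2b UMI and 41 otherwise eligible ones had none; summed over those barcodes, the platelet glycoprotein Gp9 stood at 659 and 1228 counts per 1000000 UMIs (CPM). At 5 and 4 UMIs of Pf4 there were 11 and 9 barcodes, and at 5 and 4 UMIs of Ppbp 3 and 1.

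The label was checked against markers that the thresholds did not use. Of 12 such platelet and megakaryocyte markers, among them Gp9, Gp1bb, Gp5, Gp6, Clec1b, Treml1, Tubb1, Itgb3, Nrgn, Gata1 and Nfe2, every platelet barcode held at least 3, the median barcode 10, and 229 of 259 at least 6. Among retained barcodes that did not meet the 3 platelet thresholds, 0.185% to 2.85% per library held at least 3 of the 12 and 0.0308% to 0.520% at least 6, with the highest shares in control replicate 3. The check counts markers in a barcode and does not show that it holds platelet RNA alone. Of the 259, 235 held at least 2 UMIs of the markers of another type, counting Pecam1 and erythroid markers but not Lyz2. By the stricter definition given below, 25 held markers of another type. Nrgn, encoding the calmodulin-binding protein neurogranin, was detected in all 259 and Gp9 in 242. The barcodes were shallow and most were poor in Malat1. Their median UMI total was 2766, and 39 held fewer than 1000 UMIs. Malat1, a long noncoding RNA that stays in the nucleus, made up a median of 0.0418%, 0.0600% and 0.0381% of UMIs in p16-DTR libraries and 0.0405%, 0.0266% and 0.156% in control libraries. In endothelium of the same libraries its median was 1.74% to 1.91%, and in B cells 1.39% to 1.51%. In 22 of the 259 barcodes Malat1 made up at least 1% of UMIs.

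After each barcode was thinned to 1000 UMIs, platelet barcodes showed a median of 435 to 472 genes in the 6 libraries, neutrophils 563 to 577, B cells 675 to 694 and endothelium 738 to 743. The thinning left out 39 platelet barcodes with fewer UMIs, 29 of them in control replicate 3. The same 1000 molecules were therefore spread over fewer genes in platelets in all 6 libraries. Unthinned, the median number of genes was 786 to 1254 per platelet barcode and 2119 to 2267 per neutrophil.

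Within the 259, 3 kinds of barcode could be told apart by RNA content, with a definition chosen after the data were seen. The first kind held markers of another cell type, defined as at least 10 UMIs over at least 2 markers of that type, or at least 100 for epithelium. There were 25 such barcodes, 18 of them in control replicate 3, 4 in p16-DTR replicate 1, 1 each in p16-DTR replicates 2 and 3 and control replicate 2, and none in control replicate 1. In 17 the other markers were those of fibroblasts or mural cells (42 to 895 marker UMIs), in 2 of epithelium (771 and 9513), in 2 of monocytes or macrophages (11 and 30), and in 1 each of neutrophils (800), T or NK cells (290), mesothelium (106) and endothelium (12). Of the 172 barcodes with platelet RNA left out earlier, 162 held Cdh5 and 24 Cd79a. The numbers by type therefore describe what that exclusion left, and not how often each type occurred beside platelet RNA. The 25 barcodes had a median total of 28505 UMIs and a median Malat1 share of 1.54%. The 12 markers and 3 threshold genes together made up a median of 0.314% of their UMIs. Although few, these 25 barcodes held 46.2% of all UMIs of the platelet barcodes.

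The second kind was a single Malat1-rich barcode in control replicate 3, with 44277 UMIs over 3629 genes. Malat1 took 11.6% of its UMIs, and ribosomal protein genes 0.226%. It held all 12 platelet markers, and 49 UMIs of Gata1, 95 of Nfe2 and 104 of Itga2b. Among the 25 transcripts with the highest ratio to the 233 remaining barcodes were Ppp1r12b with 120 UMIs (95% exact Poisson interval 99.5 to 143), Cbfa2t3 with 78 (61.7 to 97.3), Meis1 with 24 (15.4 to 35.7) and Nbeal2 with 26 (17.0 to 38.1). Cbfa2t3 and Meis1 encode regulators of megakaryocyte and progenitor transcription, and Nbeal2 is needed for alpha granules. Itga6 stood at 10886 CPM there against 2361 in the remaining barcodes, Gata1 at 1107 against 276, and Nfe2 at 2146 against 935. Ppbp stood at 4698 against 19860, Pf4 at 1152 against 10157, and Actb at 2801 against 36540. Kit, Mki67 and Top2a had no UMI in it (95% exact Poisson upper bound 3.69 UMIs each). One barcode has no replicate, and these values describe it alone.

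The third kind was the remaining 233 barcodes, with 652 to 16862 UMIs, a median of 2441 UMIs, a median Malat1 share of 0.0665% and a median share of 6.33% for the 12 markers and 3 threshold genes. Malat1 was at 0 in 39 of them, under 0.1% in 127 and at or above 1% in 3. No doublet caller was run.

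**Figure D2:**
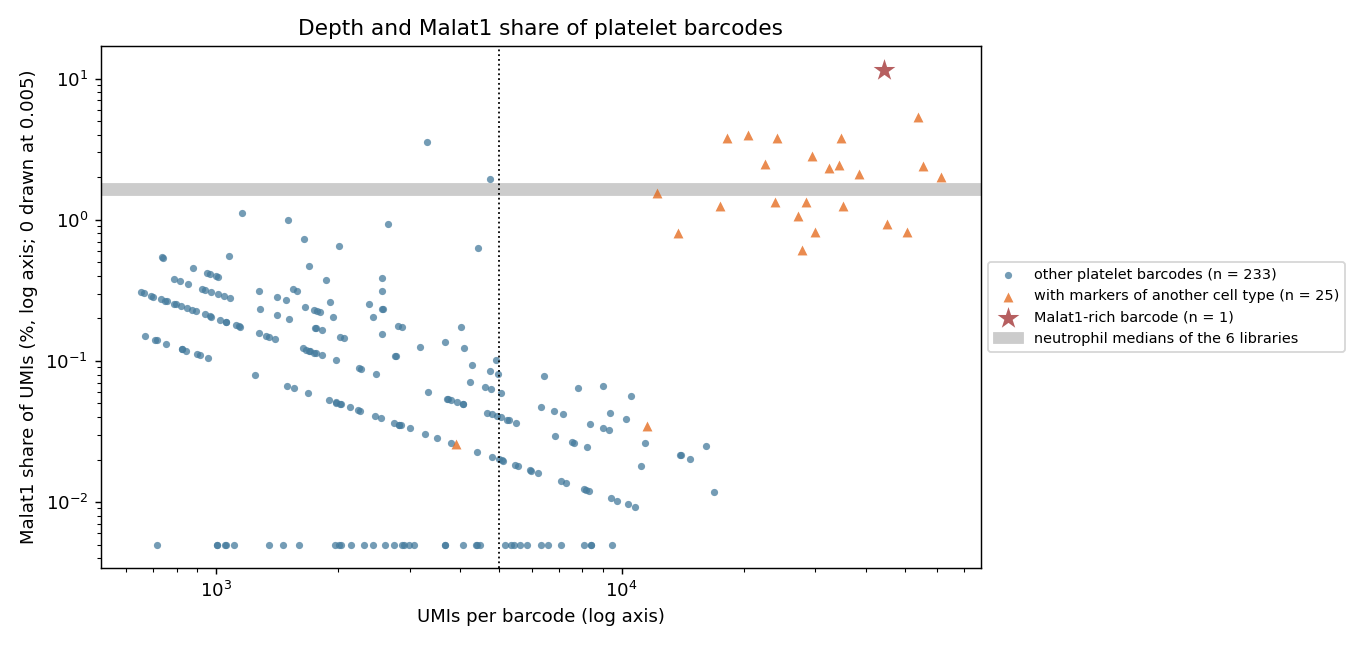
Each point is 1 of the 259 platelet barcodes, placed by its UMI total and by the share of its UMIs from Malat1, both on log axes. The 25 barcodes with markers of another cell type mostly lie to the right of the dotted line at 5000 UMIs and near the grey band of neutrophil medians, the Malat1-rich barcode lies at 44277 UMIs and 11.6%, and the other 233 lie mostly below the band.

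Of 15253 genes detected in platelet barcodes, 285 (1.87%) stood at least 4-fold above the other cells of the same library in all 6 libraries, and 395 (2.59%) did so when the 25 barcodes with markers of another type were left out. Since the platelet barcodes were selected on their RNA, this is a description with no test. The other cells are all retained barcodes of a library outside the 259. They include the 172 that met the 3 marker thresholds but held an excluded gene, 122 of them in control replicate 3. The platelet RNA of these barcodes lowers the folds of platelet genes. Levels below are CPM of counts summed per library over the 234 barcodes without markers of another type, given for p16-DTR replicates 1 to 3 and then control replicates 1 to 3. The mean over all 259 barcodes follows where it is named. Here and below, "without markers of another type" means below the limits of that definition. Of the 234, 178 still held an epithelial marker UMI and 164 an endothelial one (Pecam1 counted).

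Among granule contents, Ppbp stood at 18003, 15897, 20139, 25347, 18753 and 18587 CPM, and at 2.58 to 19.6 CPM in other cells. Pf4 stood at 11400, 11183, 9863, 9659, 11208 and 8808 CPM, and at 5.16 to 22.5 CPM in other cells. Ppbp was 949-fold to 7464-fold and Pf4 392-fold to 1872-fold above other cells of the same library. In both genes the values of the 2 groups of mice overlapped. Over all 259 barcodes the mean was 13443 ± 6198 CPM for Ppbp and 6893 ± 1784 CPM for Pf4 (SD, n = 6).

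Thrombospondin 1 (Thbs1), an adhesive glycoprotein of alpha granules, stood at 4455, 6137, 7697, 7761, 6097 and 7210 CPM, 9.78-fold to 17.3-fold above other cells. Serglycin (Srgn), the proteoglycan core that retains granule contents, averaged 4398 ± 491 CPM and was 3.63-fold to 5.67-fold above other cells, which express it too. Clusterin (Clu, 3895 ± 430 CPM) and coagulation factor V (F5, 2731 ± 453 CPM) were at least 43.0-fold and 48.3-fold above other cells in every library. The list of granule and secreted proteins held 23 genes, among them the threshold genes Ppbp and Pf4, which are high by selection. Of the 23, 10 stood at least 4-fold above other cells in all 6 libraries (8 over all 259 barcodes), Ppbp and Pf4 included. The median gene of the list was 4.93-fold above them, against a median of 0 over all 15253 detected genes. A gene counted as detected with 1 UMI over all 259 barcodes. The median of 0 thus reflects genes without counts in most libraries and is no background for abundant genes. Over all 259 barcodes the medians were 3.03-fold for the list and 0.276-fold for all detected genes. Not every alpha-granule gene was high: Sparc stood at 37.9, 0, 0, 12.8, 241 and 216 CPM against 514 to 643 CPM in other cells, and Pdgfb at 0 to 20.1 CPM, whereas Pdgfa averaged 503 ± 117 CPM.

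The adhesion receptors were the list with the highest fold. Itga2b stood at 3362, 3701, 5198, 4130, 4467 and 3498 CPM, against 3.07 to 6.37 CPM in other cells. Its partner Itgb3 averaged 3032 ± 559 CPM and was 160-fold to 290-fold above other cells. The 4 genes of the von Willebrand factor receptor complex were all present. Gp9 stood at 4015, 3875, 5319, 4284, 4346 and 3778 CPM, against 0.578 to 5.26 CPM in other cells. Gp5 averaged 2258 ± 407 CPM, Gp1ba 717 ± 148 CPM and Gp1bb 342 ± 58.4 CPM, and each of these 3 was at least 714-fold above other cells in every library. The matches printed above for Gp5 and Gp9 therefore belong to genes with high platelet levels, as does the Ppbp window without a match.

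The collagen receptor Gp6 averaged 945 ± 109 CPM and the podoplanin receptor Clec1b 3874 ± 829 CPM. Treml1, a receptor stored in alpha granules, averaged 2089 ± 290 CPM and the tetraspanin Cd9 8808 ± 370 CPM. In all, 16 of 22 adhesion receptors were at least 4-fold above other cells in all 6 libraries (15 over all 259 barcodes). The median gene was 127-fold above them. Both values include the threshold gene Itga2b, which is high by selection. The scavenger receptor Cd36 was the reverse, at 0 to 92.7 CPM in platelet barcodes and 616 to 1005 CPM in other cells.

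**Figure D3:**
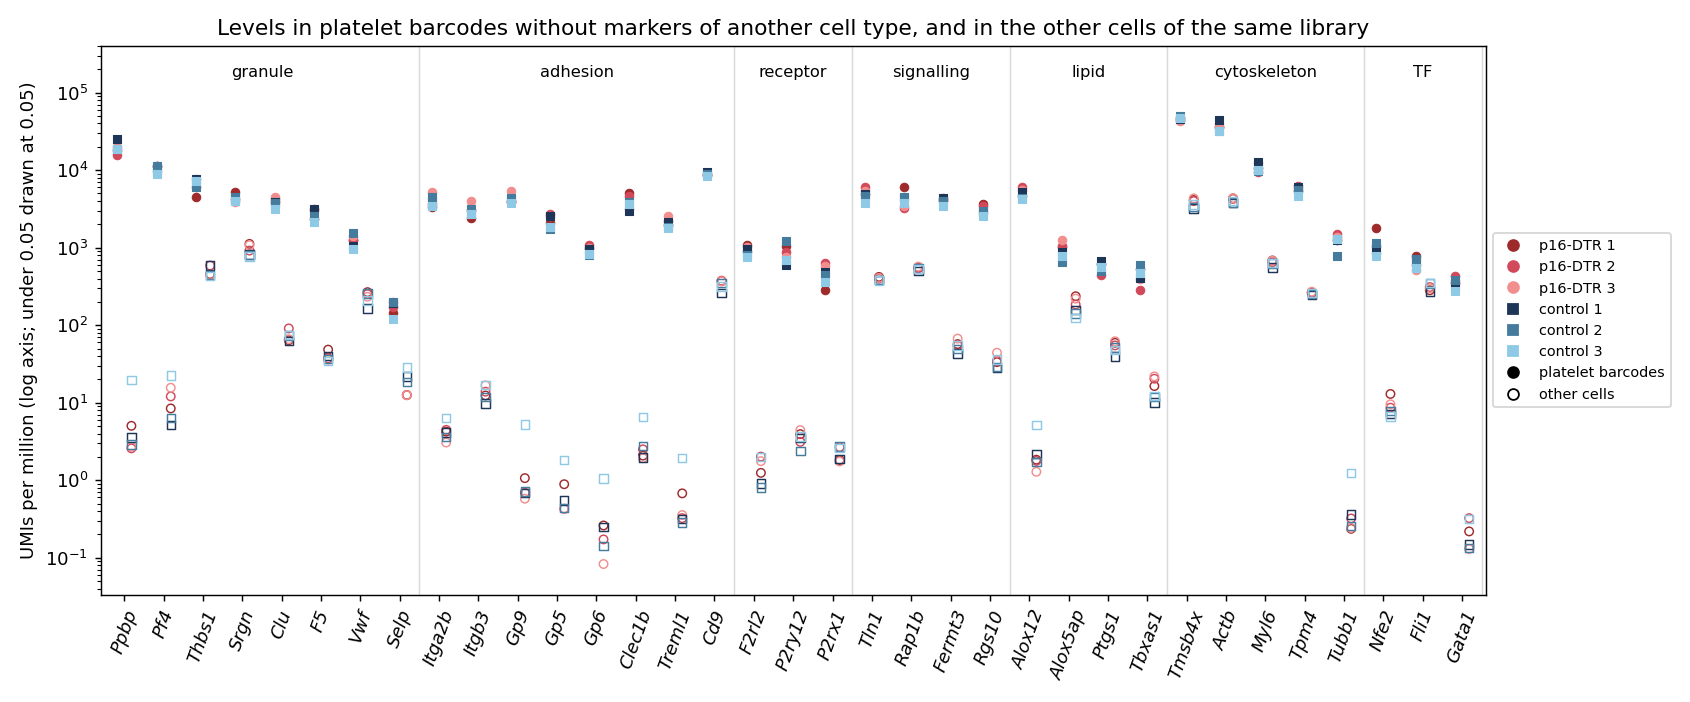
Filled symbols are CPM in the 234 platelet barcodes without markers of another cell type and open symbols are the other cells of the same library, 1 symbol for each of the 6 libraries, on a log axis. Genes are grouped by role, from granule contents to transcription factors (TF). Gp9 lies at 3778 to 5319 in platelet barcodes and at 0.578 to 5.26 in other cells, and the p16-DTR and control symbols overlap.

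Receptors for soluble agonists start platelet activation. F2rl2, the thrombin co-receptor PAR3 of mouse platelets, stood at 1070, 902, 1007, 949, 805 and 764 CPM, and the ADP receptor P2ry12 at 1055, 886, 756, 603, 1227 and 700 CPM. The ATP-gated channel P2rx1 averaged 466 ± 131 CPM. Each of these 3 was at least 139-fold above other cells in every library. Of 12 genes, 7 were at least 4-fold above other cells in all libraries, with a list median of 40.7-fold. F2rl3 (PAR4), the signalling thrombin receptor of mouse platelets, was found in 25 of the 259 barcodes and stood at 15.2 to 121 CPM. The thromboxane receptor gene Tbxa2r was at 0 CPM in 5 of 6 libraries, and the adrenergic receptor gene Adra2a had no UMI in any of the 259 barcodes.

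Among genes that carry signals to the integrin, talin (Tln1) stood at 4858, 6042, 5329, 4990, 4668 and 3719 CPM and kindlin-3 (Fermt3) at 4091, 4413, 4100, 4413, 3944 and 3494 CPM. Both bind the integrin beta tail. The small GTPase gene Rap1b averaged 4238 ± 1040 CPM, and Rgs10, which limits G protein signals, 3054 ± 402 CPM. In this list 9 of 28 genes were at least 4-fold above other cells in all libraries (7 over all 259), with a median of 3.11-fold. Eicosanoid synthesis was represented by Alox12, the platelet 12-lipoxygenase, at 4660, 6042, 5601, 5272, 4407 and 4248 CPM against 1.29 to 5.17 CPM in other cells. Alox5ap averaged 941 ± 218 CPM, cyclooxygenase 1 (Ptgs1) 569 ± 84.9 CPM and thromboxane synthase (Tbxas1) 448 ± 112 CPM. These 4 were the genes of the list of 9 that stood at least 4-fold above other cells in all libraries. Cyclooxygenase 2 (Ptgs2) was at 0 CPM in 5 of 6 libraries and at 2.21 CPM in control replicate 3.

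The cytoskeleton list held 25 genes, among them Nrgn, which encodes a calmodulin-binding protein and is 1 of the 12 platelet markers. The 25 summed to 150591, 147392, 154863, 160920, 145476 and 138279 CPM, against 12176 to 13745 CPM in other cells. Of them, 19 were at least 4-fold above other cells in every library (13 over all 259), with a median of 9.77-fold. Thymosin beta 4 (Tmsb4x), which sequesters actin monomers, stood at 47596, 44638, 42957, 45268, 49820 and 47237 CPM, and Actb at 31691 to 43870 CPM. Nrgn stood at 11286 to 14747 CPM against 4.44 to 25.5 CPM in other cells. Tubb1, the beta tubulin of the platelet marginal band, averaged 1248 ± 249 CPM, at least 1042-fold above other cells. Other genes among the 25 highest that were at least 4-fold raised in all libraries were Ctla2a, Tsc22d1, Ywhah, Gng11, Plek, Gnas, Tpm4, Myl9, Myl6, Zyx, Prkar2b, Lsm12 and 1810058I24Rik, with means over all 259 barcodes of 2920 to 7692 CPM.

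Transcripts of some megakaryocyte transcription factors were detected. Nfe2, a factor needed for platelet release, stood at 1784, 1060, 846, 924, 1147 and 788 CPM, and Gata1 at 349, 427, 373, 321, 382 and 274 CPM against 0.130 to 0.325 CPM in other cells. In control replicate 3, a single Malat1-rich barcode held 49 of 124 Gata1 UMIs and 95 of 357 Nfe2 UMIs, and without it the values there were 183 CPM for Gata1 and 641 CPM for Nfe2. Fli1, which endothelial and immune cells also express, averaged 634 ± 99.9 CPM and was 1.54-fold to 2.74-fold above other cells. Of 16 genes, 4 were at least 4-fold above other cells in every library (Gata1, Nfe2, Tal1 and Gfi1b).

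**Figure D4:**
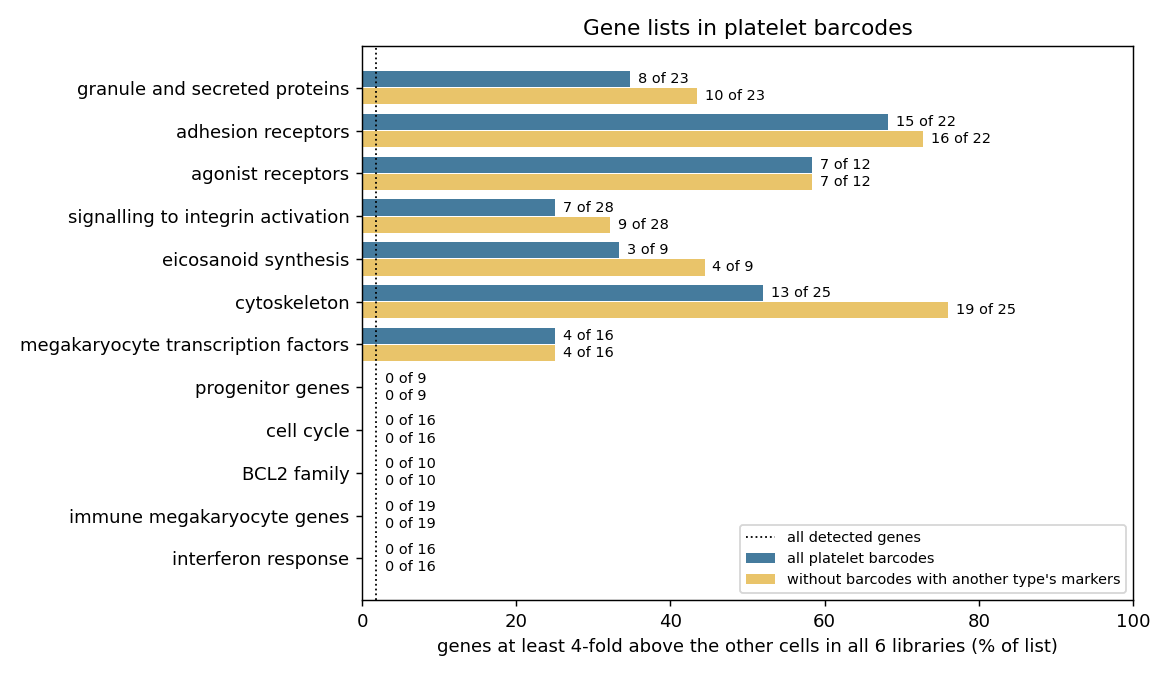
Bars give the percentage of each gene list that stood at least 4-fold above the other cells in all 6 libraries, over all 259 platelet barcodes (blue) and over the 234 without markers of another cell type (yellow), with the counts printed beside them. Adhesion receptors reach 16 of 22 and the cytoskeleton list, which includes Nrgn, 19 of 25. The dotted line is 1.87% of all detected genes, and 5 lists have 0 genes. The counts include the threshold genes Ppbp and Pf4 (granule list) and Itga2b (adhesion list), which are high by selection.

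The other 5 lists of platelet and megakaryocyte function had no gene at least 4-fold above other cells in all libraries. In the cell cycle list, Ccnd3 averaged 800 ± 165 CPM, Tubb5 72.4 ± 44.2 CPM, Pcna 8.68 ± 7.09 CPM and Mki67 5.01 ± 10.3 CPM, and Cdk1, Ccnb1, Ccnb2, Ccna2, Aurkb and Plk1 had no UMI in any platelet barcode. Of the progenitor genes, Gata2 averaged 250 ± 68.4 CPM, Ly6a 44.8 ± 26.9 CPM, Cd34 7.22 ± 11.5 CPM and Mecom 3.47 ± 5.67 CPM. In the BCL2 family, Bcl2l1, whose product BCL-xL sets platelet lifespan, averaged 302 ± 87.5 CPM against 110 to 200 CPM in other cells, Mcl1 128 ± 49.1 CPM against 433 to 485 CPM, Bid 81.5 ± 46.2 CPM and Bcl2 20.3 ± 23.2 CPM.

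The 19 genes of antigen presentation and innate sensing that mark immune megakaryocytes summed to 114, 158, 141, 115, 161 and 289 CPM, against 4460 to 6308 CPM in other cells. Cd74 averaged 38.4 ± 33.3 CPM, Il1b 15.6 ± 11.4 CPM, Icam1 13.4 ± 16.6 CPM and Il6 0.368 ± 0.901 CPM. Of the interferon-response genes, Ifitm3 averaged 358 ± 103 CPM and Ifitm2 148 ± 55.1 CPM, both below the other cells in every library. Ifitm1 averaged 3.31 ± 4.43 CPM, and Mx1 had no UMI. Over all 259 barcodes Il1b averaged 149 ± 305 CPM and Il6 118 ± 153 CPM, above their levels without the 25 barcodes.

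Control replicate 3 differed from the other 5 libraries in the makeup of its platelet barcodes. Among the 233 barcodes of the third kind, the median Malat1 share was 0.131% there and 0.0213% to 0.0514% elsewhere, the ribosomal protein share 1.86% against 0.847% to 1.03%, and the share of the 12 markers and 3 threshold genes 5.59% against 6.47% to 7.24%. The median UMI total was 1973.5 there and 2762 to 5126.5 elsewhere. By depth as defined below, 125 of its 146 barcodes were shallow, so these medians mostly describe them. Its shallow Malat1 share was 0.170% against 0.0492% to 0.122% in shallow barcodes elsewhere. In its 21 deep barcodes Malat1 (0.0183%) and ribosomal protein (0.658%) lay within the deep ranges elsewhere (0.0160% to 0.0244% and 0.526% to 0.942%). The deep share of markers and threshold genes was highest there (7.69% against 6.27% to 7.33%). Over all 233 barcodes a wider list of 10 epithelial genes summed to 2436 CPM against 332 to 1509. A wider list of 10 fibroblast or mural genes summed to 335 against 94.9 to 167, and dissociation stress genes to 780 against 161 to 321 CPM. The epithelial, fibroblast and stress sums were thus highest in the library with the most platelet barcodes, and their part in the values of control replicate 3 was not tested.

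Markers of other types were also summed in the 234 barcodes, where the definition of the 25 bounds the marker UMIs a barcode can hold, so that low sums are partly fixed by it (Lyz2, Pecam1 and the erythroid markers were not used). Basophil or mast cell markers (Mcpt8, Cd200r3 and Cpa3) and mesothelial markers (Msln and Upk3b) had no UMI. The 6 neutrophil markers summed to 20.1 to 80.6 CPM, with Csf3r, Cxcr2 and Mmp9 at 0, and the 6 fibroblast or mural markers of the definition to 30.4 to 60.4 CPM, with Pdgfrb at 0. The monocyte or macrophage list summed to 1831 to 2360 CPM, nearly all Lyz2 (2072 ± 191 CPM against 2298 in other cells), with Ccr2, Cd68 and C1qa at 0. The 5 epithelial markers summed to 308 to 1578 CPM, with a UMI in 178 of 234 barcodes (76.1%). The 5 endothelial markers, which include Pecam1, summed to 524 to 777 CPM, with a UMI in 164 barcodes (70.1%), and Cdh5 was at 0 by the thresholds.

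Globin RNA was also present. The 5 erythroid markers summed to 242 to 751 CPM in p16-DTR libraries and 995 to 1851 CPM in control libraries, while the erythroid synthesis enzyme gene Alas2 was at 0. Single barcodes carried much of these sums in some libraries. The highest barcode held 63 of the 95 erythroid marker UMIs of control replicate 1, 55 of 92 in control replicate 2 and 86 of 451 in control replicate 3. In p16-DTR replicates 1 to 3 it held 47 of 99, 8 of 21 and 5 of 24. With the highest barcode of every library left out, the sums were 424, 241 and 208 CPM in p16-DTR libraries. In control libraries they were then 460, 868 and 893 CPM. Hba-a1 stood at 638, 285, 151, 1026, 1610 and 872 CPM in platelet barcodes and at 0.107 to 6.87 CPM in other cells. Over all 259 barcodes the log2 difference of Hba-a1, p16-DTR minus control, was -1.72 (SE 0.49, adjusted p = 1.00, unadjusted p = 0.00966 by edgeR), so it did not pass the threshold after adjustment.

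No gene passed the test of p16-DTR against control in platelet barcodes. Counts were summed per library over all 259 barcodes and tested with the edgeR quasi-likelihood test, and 0 of 1806 genes (0%) had an adjusted p under 0.05. At an unadjusted p under 0.05 there were 13 genes with edgeR and 10 with DESeq2, which called 0 too. Without the 25 barcodes with markers of another type, edgeR called 0 of 1058 genes, and 57 genes had an unadjusted p under 0.05.

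The edgeR log2 difference of Gp9, p16-DTR minus control, was 0.09 (SE 0.38, adjusted p = 1.00). Cdkn2a, which encodes p16, had no UMI in 66 p16-DTR and 193 control platelet barcodes. Over these pooled barcodes, counting error alone allows a share of up to 4.55% and 1.55% with a Cdkn2a UMI at this depth. Of the 193, 165 came from control replicate 3, so these values set no limit for the groups of mice. They also set no limit on the share that carries the transcript. The tdTomato feature had no UMI either. Cdkn1a had a UMI in 8 of 66 and 18 of 193 barcodes, and Hbegf, whose human counterpart encodes the diphtheria toxin receptor, in 2 of 66 and 5 of 193. Without the 25 barcodes Cdkn1a averaged 16.4 ± 16.4 CPM, against 240 to 417 CPM in other cells.

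How platelet barcodes varied among themselves was asked by depth. The thresholds are numbers of UMIs, so they act differently by depth: a shallow barcode had to hold the same Ppbp, Pf4 and Itga2b minimum out of a smaller total. The barcodes left out for a UMI of C1qa, Cdh5, Cd79a or Cd3e were mostly deep, with median totals of 10042 to 33880 UMIs per library. Which barcodes entered each band was therefore shaped by the thresholds. Barcodes with at least 5000 UMIs (81, deep) were compared with those below (178, shallow) in edgeR, with the library as a block, and 39 barcodes lay between 4000 and 6000 UMIs. Over all 259 barcodes and 6 libraries, 142 of 770 genes (18.4%) were called, 109 higher in deep barcodes (14.2%) and 33 lower (4.29%). The count was 39 without control replicate 3, 62 without p16-DTR replicate 1, 88 without p16-DTR replicate 2 and 404 without control replicate 1. Of the 25 barcodes with markers of another type, 24 were deep. Among genes higher in the deep barcodes of every library, the largest differences were those of Jund (log2 difference 3.44, SE 0.50), Igfbp7 (3.33), Hspa5 (3.04), Rpl12 (2.94), Tns1 (2.88), Celf2 (2.78), Rack1, Rpl15, Grk5 and Rps21, and none of these 10 reached the level needed for testing once the 25 barcodes were left out. Mgp (4.33), Jun (3.98) and Fos (3.57) had larger called differences but were not higher in deep barcodes in every library. Jund is an immediate early factor, Igfbp7 is a secreted protein of endothelium and mural cells, and Rpl12, Rpl15 and Rps21 are ribosomal proteins.

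Genes lower in deep barcodes included platelet genes. Adgrg1, Atp2a3 (the platelet calcium pump SERCA3), Mfsd2b (the sphingosine 1-phosphate exporter of platelets), Hacd4, Atox1, Mpig6b and Vwf fell by 0.67 to 0.96 on the log2 scale, with adjusted p of 0.00688 to 0.0452 by edgeR. Of 19 adhesion receptors tested, the threshold gene Itga2b left out, 6 were lower and none higher in deep barcodes over all 259, and without the 25 barcodes 0 of 19 passed in either direction (list median -0.12, against 0.03 over all 566 genes tested). The 7 genes named kept their sign without the 25 barcodes but none passed (adjusted p 0.221 to 0.643).

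Without the 25 barcodes, 17 of 566 genes (3%) were called in 5 libraries, 5 higher in deep barcodes (0.883%) and 12 lower (2.12%), 9 in all without p16-DTR replicate 1 and 7 without control replicate 3. p16-DTR replicate 2 had fewer than 5 deep barcodes and dropped out of this fit. Since 24 of the 25 were deep and were chosen by their marker UMIs, leaving them out acted almost only on the deep band. Genes called higher are named only where they were higher in deep barcodes of all 5 libraries, so this agreement came from the choice. Nfe2 stood at 968 to 1990 CPM in deep and 426 to 890 CPM in shallow barcodes, with a log2 difference of 0.91 (SE 0.20, adjusted p = 0.0138 by edgeR). It was 0.46 over all 259 barcodes and did not pass (edgeR adjusted p = 0.104). The difference was 0.79 without the Malat1-rich barcode (adjusted p = 0.0194), and the adjusted p was 0.0938 without p16-DTR replicate 1 and 0.150 without control replicate 3. Esd, an esterase, was higher by 0.66 (adjusted p = 0.0404), Rap1a, a GTPase related to Rap1b, by 0.73 (adjusted p = 0.0418), and the zinc finger gene Zfand5 by 1.44 (adjusted p = 0.0138). Without the Malat1-rich barcode Zfand5 and Rap1a no longer passed (edgeR adjusted p 0.164 and 0.166), while Esd did (0.0181). Zfand5 did not pass without p16-DTR replicate 1 (0.0938) or control replicate 3 (0.218). Leaving out any 1 of the 5 libraries ended the call of Rap1a (0.0845 to 0.238), and that of Esd ended in each case but without control replicate 3 (0.0471 to 0.154). Zfand5 passed over all 259 barcodes too (edgeR adjusted p = 0.0150), and Rap1a (0.0770) and Esd (0.390) did not.

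Of the 12 genes lower in deep barcodes, 10 are named here. Gm42418 and AY036118 overlap ribosomal RNA sequence, and fell by 0.76 and 0.73 on the log2 scale (adjusted p = 0.00621 and 0.0157 by edgeR). The mitochondrial transcripts mt-Nd4 and mt-Co3 fell by 0.87 and 0.74, and Camk1d, Cmss1, Lars2 and Gphn by 0.98, 0.75, 1.09 and 1.44. Cyb5r3 fell by 1.38. The surfactant gene Sftpc, which marks alveolar type 2 epithelium, is given as a description, since its own UMIs were among those by which epithelium-rich barcodes were left out. It stood at 216 to 956 CPM in shallow and 55.9 to 322 CPM in deep barcodes, and its log2 difference was -1.87 without the 25 barcodes and -0.23 over all 259. Deep barcodes had the lower value of each of these 10 genes in all 5 libraries, which the choice of named genes required. The genes mt-Nd2 (log2 difference -1.44, edgeR adjusted p = 0.0418) and mt-Co2 (-0.71, 0.0189) were called lower too and are not among the 10. Camk1d, Cmss1, Lars2 and AY036118 also passed over all 259 barcodes (edgeR adjusted p 0.00518 to 0.0436), and Gphn (0.171), Cyb5r3 (0.183), mt-Nd4 (0.462), mt-Co3 (0.697) and Gm42418 (0.151) did not. Camk1d, Gphn, Lars2 and Gm42418 passed without each of the 5 libraries in turn. Without control replicate 3, 6 genes were called lower in deep barcodes, Cyb5r3 gave no value, and mt-Nd4 (0.108), mt-Co3 (0.149) and AY036118 (0.108) did not pass. Cmss1 did not pass without p16-DTR replicate 1 (0.0577). Cyb5r3 did not pass without p16-DTR replicate 1 (0.149), p16-DTR replicate 3 (0.0546) or control replicate 1 (0.0789), mt-Co3 without p16-DTR replicate 3 (0.0582) or control replicate 1 (0.0545), or AY036118 without control replicate 1 (0.0503). The median Malat1 share of the third kind of barcode also lay lower in deep than in shallow barcodes in all 6 libraries, at 0.0160% to 0.0244% against 0.0492% to 0.170%, and so did the ribosomal protein share. The median mitochondrial share was lower in deep barcodes in 5 of 6 libraries and higher in p16-DTR replicate 3 (1.88% against 1.75%). The summed markers of epithelium were lower in deep barcodes in 5 of 6 libraries, at 108 to 475 CPM against 598 to 2465 CPM in shallow ones. In control replicate 2 they were higher in deep barcodes (894 against 359.8 CPM), and the highest shallow value was that of control replicate 3, which held 125 of the 177 shallow barcodes. The deep values are partly fixed by the limit of 100 epithelial marker UMIs, which deep barcodes reach more readily. The part of these shares and sums in the differences by depth was not tested.

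**Figure D5:**
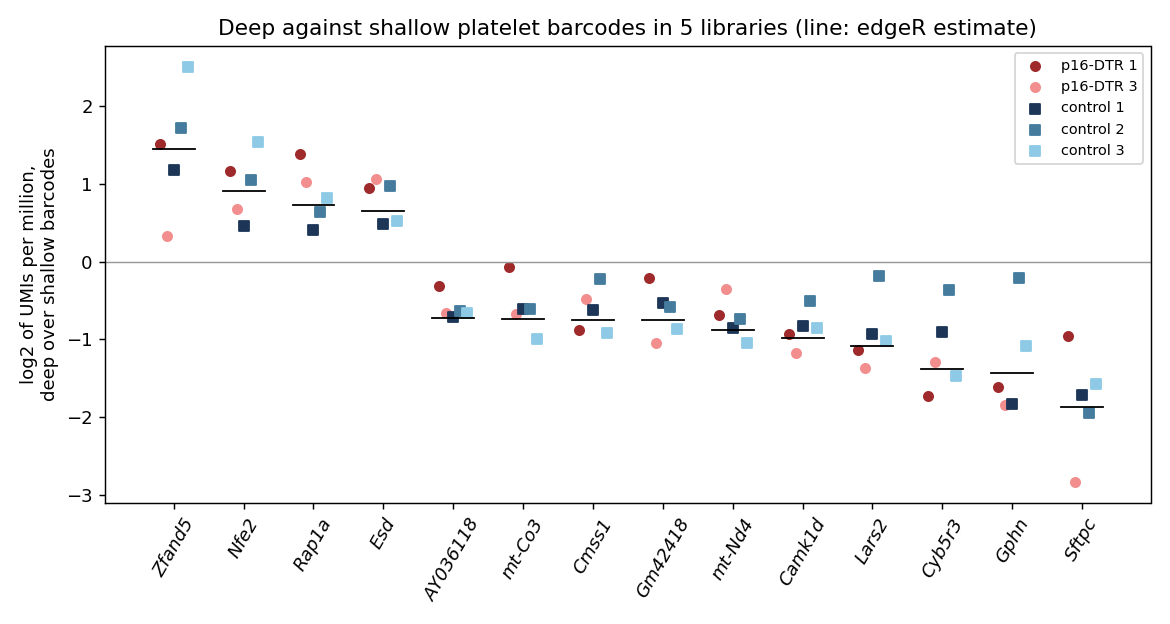
Each symbol is the log2 ratio of CPM in deep (at least 5000 UMIs) over shallow platelet barcodes of 1 library, for the 14 genes named from the test without barcodes holding markers of another cell type, and the line is the edgeR estimate. Nfe2 lies above 0 in all 5 libraries and Gm42418 below 0 in all 5, as the choice of these 14 genes required.

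The 3 genes of the thresholds are given by depth as a description. Over all 259 barcodes the log2 difference, deep minus shallow, was -0.58 for Ppbp, 0.01 for Pf4 and -0.81 for Itga2b. Without the 25 barcodes it was -0.09 for Ppbp, 0.45 for Pf4 and -0.44 for Itga2b.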

How the data were processed

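Counts of UMIs, 1 matrix per lung and not normalized, were deposited by the authors for 3' libraries of 6 lungs. They were made with Cell Ranger 8.0.1 on mm10, per the submitters' processing notes. Of 31054 features, 30934 matched GENCODE M21 (GRCm38), which gave positions. Each library is 1 mouse, and cells are not replicates. The p-values of p16-DTR against control measure the spread between 3 mice per group. Those of deep against shallow barcodes measure the spread of a difference within a library, over the tested libraries of both groups together.

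Libraries held 13482 to 17332 barcodes and 254200305 to 344421685 UMIs, and platelet barcodes 77958 to 953729 UMIs per library. No clustering was used. Counts summed per library, or per library and depth band, over at least 5 barcodes were tested with edgeR 4.0.16 (low counts filtered, TMM factors, quasi-likelihood test, Benjamini-Hochberg adjustment over all genes tested, threshold 0.05) in R 4.3.3, and the code was tested on simulated data. Shares were compared with an exact permutation test. CPM is counts per 1000000 UMIs of the summed barcodes, and a fold sets other cells with under 3 counts at 3. Alternatives were DESeq2 1.42.0, RLE factors, no filter, stricter barcode filters, other depth limits, equal barcode numbers, a replicate block and each library left out. Values were computed in Python 3.11.15 (numpy 2.4.6, pandas 2.3.3, scipy 1.17.1), and figures were drawn with matplotlib 3.10.9.

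The members and gene lists were chosen with earlier results of these data known. Named genes are those of the thresholds, Cdkn2a, Cdkn1a, Hbegf and tdTomato, the 25 highest among genes at least 4-fold above other cells in every library, up to 10 called genes per direction and test with 1 sign in all libraries, and the 4 highest of each list with those under 1 CPM everywhere. Some genes that this rule names are not reported here. Other genes were named after their values were seen. The definition of barcodes with markers of another type (Lyz2, Pecam1 and erythroid markers were not used) and of the Malat1-rich barcode was also chosen after seeing the data.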

Additional observations from a re-analysis of the deposited data

How the results depend on the processing

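The share of platelet barcodes, p16-DTR minus control, stayed negative under 4 other barcode or marker filters and without the 25 barcodes with markers of another type, and ran from -0.418 to 0.0535 percentage points with 1 library left out, turning sign without control replicate 3. With the replicate number as a block it was -0.258 (exact sign-flip p = 1), and edgeR with the replicate block called 0 genes between the groups. Deviations of same-numbered libraries from their group means correlated at -0.45, -0.16 and -0.31, and those of differently numbered libraries at -0.26 to 0.43. The labels do not say whether the numbers pair the mice. These correlations cannot decide it, since the deviations of 3 libraries from their own mean sum to 0. Between p16-DTR and control, edgeR called 22 genes with no filter on low counts and 0 under the other alternatives. The count of genes called by depth, 142, became 920 in a separate fit with no filter (15253 genes tested), 36 with the limit at 3000 UMIs, 866 at 10000 UMIs (2 libraries, 4332 genes tested), 52 without the library block, and 39 to 404 with 1 library left out. Without the 25 barcodes it was 17 (6 shared with the 142), with DESeq2 14, with RLE factors 18, without the Malat1-rich barcode too 16, and 7 to 17 with 1 library left out. The 285 genes above other cells became 181 at 8-fold and 926 in control replicate 3 alone. Other causes of these shifts were not tested. A filter dropping barcodes with 2 or more UMIs of another type left 1 to 11 per library, so its tests could not be fitted, and equal barcode numbers were not run by depth. In 5 of 6 libraries the values rest on 11 to 26 platelet barcodes.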
